A study of Homo sapiens with 8 samples.

Results

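The peaks of PHF20 and PHF20L1 were compared to 20033 protein-coding genes. The genes described here were the 9 of them that encode the writers and erasers of DNA methylation and the UHRF factors. They were taken by name, because PHF20L1 is known to bind the protein DNMT1, and the rule uses no measured value, although earlier results of these data were known when they were chosen. The data were HA ChIP-Seq libraries from U2OS cells, a human osteosarcoma line. In ChIP-Seq an antibody isolates the DNA bound by a protein, and regions with more sequenced fragments than an input library without antibody are called as peaks. For PHF20 there were 2 ChIP libraries and 1 input library from cells over-expressing N-3xHA PHF20. For PHF20L1 there were 3 ChIP libraries, of which the labels give 1 as N-3xHA PHF20L1 and the others as C-3xHA PHF20L1, and 2 input libraries, 1 for each tag position. The tagged protein was expressed from a lentiviral vector in all of them, so the peaks are those of ectopic protein and no library of the untagged proteins was analysed here. The deposited values are the start and end of 4147 PHF20 peaks and 723 PHF20L1 peaks, in 1 final list per protein that required a call in more than 1 library. They carry no height and no value per replicate, so no spread between replicates can be given, and the depth of each library cannot be read from them. A gene without a peak is therefore a gene at which no site passed the authors' thresholds, and weaker binding there may have gone uncalled. Nor can a called peak with little signal be told from a strong one.

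DNA methylation is the addition of a methyl group to cytosine, in mammals mostly where cytosine precedes guanine (CpG). DNMT3A and DNMT3B set new methyl groups, with DNMT3L as a cofactor that has no catalytic activity of its own, and DNMT1 copies the pattern to the new strand after replication, where UHRF1 recognizes hemimethylated CpG and recruits it. TET1, TET2 and TET3 oxidize methylcytosine, the first step of its removal. PHF20 and PHF20L1 are readers of methylated lysine and subunits of NSL, a histone acetyltransferase complex found at promoters, and PHF20L1 binds methylated DNMT1 and limits its degradation. The question addressed here is whether either reader also had a binding site at the genes of this system.

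The UHRF2 promoter held the only peak found at these genes, and it was in the PHF20 list. UHRF2 encodes a ubiquitin ligase that is the paralog of UHRF1. The peak lay on hg38 at chr9:6412638-6413028 and was 391 bp wide. Its central 300 bp, from 6412683 to 6412982 on the plus strand, are shown because they are the bound sequence of this gene set. For comparison, a plus-strand stretch before a RefSeq start of the paralog UHRF1, where no peak was called, is shown from the RefSeq promoter sequences (GRCh38.p14, chr19:4909894-4910143). This stretch lies within the UHRF1 gene, between annotated exons. It is downstream of the canonical transcription start site at 4909501, whereas the UHRF2 stretch is upstream of every annotated start of its gene. The stretches therefore differ in position as well as in length. Capitals mark CpG, of which the UHRF2 stretch held 24 in 300 bp and the UHRF1 stretch 32 in 250 bp. Another UHRF1 stretch, upstream of the canonical start at chr19:4909251-4909429, held 19 in 179 bp and is not shown.
UHRF2: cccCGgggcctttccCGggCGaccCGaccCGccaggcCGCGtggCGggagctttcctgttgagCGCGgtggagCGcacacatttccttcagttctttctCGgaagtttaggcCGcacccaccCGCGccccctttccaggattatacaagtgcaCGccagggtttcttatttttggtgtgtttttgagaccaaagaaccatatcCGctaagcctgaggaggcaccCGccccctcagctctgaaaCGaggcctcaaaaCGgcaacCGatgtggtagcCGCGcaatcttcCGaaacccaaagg
UHRF1: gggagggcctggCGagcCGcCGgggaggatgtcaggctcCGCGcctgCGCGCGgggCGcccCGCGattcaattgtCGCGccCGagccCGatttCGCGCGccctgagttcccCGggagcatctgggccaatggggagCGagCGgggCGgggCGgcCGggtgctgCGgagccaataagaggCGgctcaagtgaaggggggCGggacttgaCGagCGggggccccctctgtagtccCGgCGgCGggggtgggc

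A promoter peak was defined as a peak that overlaps the window between -1000 and +500 bp of the transcription start site (TSS) of any transcript annotated in GENCODE release 44. By this definition PHF20 had a promoter peak at 1 of the 9 genes (11.1%) and at 4148 of all 20033 protein-coding genes (20.7%). PHF20L1 had one at 0 of the 9 and at 766 of all protein-coding genes (3.82%). The count of 0 was taken to allow up to 3 counts, or 33.3% of the 9, which is a rough bound and not an exact limit. Promoter peaks of both proteins were present at 0 of the 9 and at 3.73% of all protein-coding genes. In the gene body outside the promoter, neither list had a peak in any of the 9 genes. Such peaks were rare in general, with 1.34% of protein-coding genes for PHF20 and 0.364% for PHF20L1. In a set of 9 a single gene moves the share by 11.1 percentage points, so these counts show no difference from the background in either direction.

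UHRF2 (ENSG00000147854.17) lies on the plus strand of chromosome 9 from 6413151 to 6507054. The PHF20 peak ended 123 bp upstream of its outermost TSS and began 513 bp upstream of it, so that none of the 13 annotated TSSs was inside the peak. The peak overlapped no annotated gene, and UHRF2 was the only gene whose promoter window it reached. Its width was at percentile 25.5 of PHF20 peak widths, whose median was 599 bp. Among the 4148 protein-coding genes with a PHF20 promoter peak, 79.7% had a TSS of the gene inside a peak, and 10.7% had peaks only upstream of every TSS, as UHRF2 did. For the latter genes the median of the widest peak was 428.5 bp, and over all 4148 genes it was 682 bp. The UHRF2 peak was 60.9% GC and contained 31 CpGs, with a CpG observed/expected ratio of 0.856. The call at UHRF2 was lost when peaks below the median width of the list were left out.

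**Figure D1:**
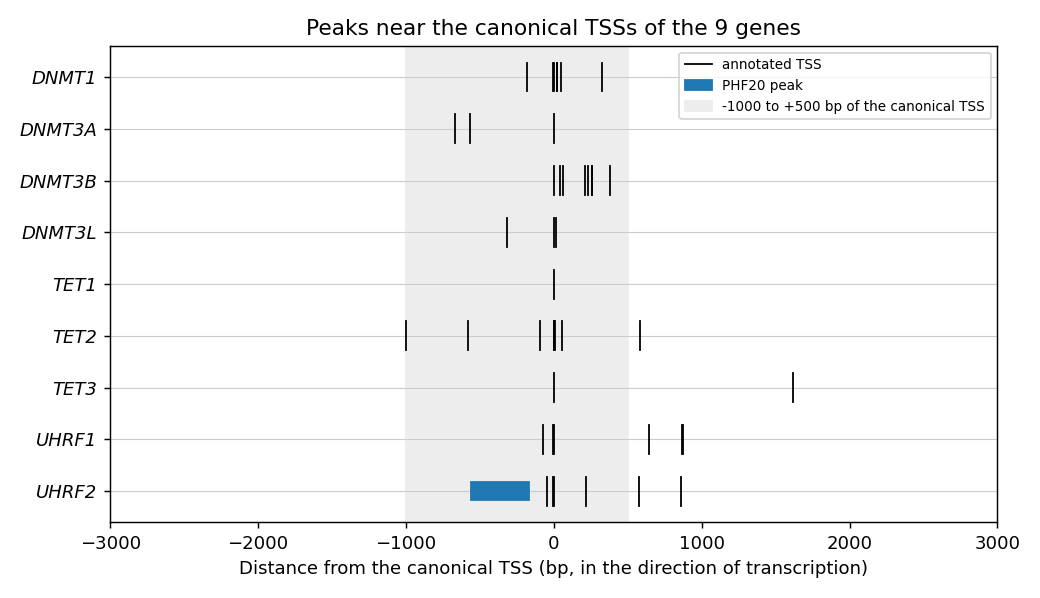
Annotated TSSs (black lines) and peaks (blue bar) within 3000 bp of the canonical TSS of each of the 9 genes, which is placed at 0 with transcription running to the right. Each row is 1 gene, and the shaded band reaches from -1000 to +500 bp. The 391 bp PHF20 peak at UHRF2 lies upstream of all TSSs of its gene, and the other 8 rows hold no peak.

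At the maintenance genes DNMT1 and UHRF1, neither list had a peak. DNMT1 (ENSG00000130816.17, chromosome 19, 10133342 to 10231286, minus strand) had 52 annotated transcripts with 43 distinct TSSs, and none of their windows was reached. The nearest PHF20 peak was 954 bp wide, from 10251779 to 10252732, and lay 20.5 kb from the outermost TSS of DNMT1 and 56.8 kb from its canonical TSS. The nearest PHF20L1 peak, 511 bp from 10251971 to 10252481, was inside it. Both were promoter peaks of MRPL4, a mitochondrial ribosomal protein gene. UHRF1 (ENSG00000276043.5, chromosome 19, 4903080 to 4962154, plus strand) lay 179 kb from the nearest peak of either list. Those peaks overlapped each other at the promoter of DPP9, which encodes a dipeptidyl peptidase, and were 881 bp wide for PHF20 and 376 bp for PHF20L1. The nearest PHF20L1 peak to UHRF2 was 199 kb from the nearest of its TSSs and 291 kb from its canonical TSS.

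The de novo enzymes were also without a peak. Distances are from the nearest TSS of each gene unless stated. The nearest PHF20 peak lay 269 kb from DNMT3A (ENSG00000119772.19, chromosome 2, 25227855 to 25342590, minus strand) and 369 kb from its canonical TSS. That peak was at DNAJC27 and, with 1863 bp, at percentile 99.9 of PHF20 widths. The nearest PHF20L1 peak to DNMT3A was 1170 kb away. DNMT3B (ENSG00000088305.19, chromosome 20, 32762385 to 32809359, plus strand) had the shortest distance of the 8 genes without a peak, with 18.7 kb to a PHF20 peak of 217 bp at the promoter of COMMD7. It also had the longest distance to PHF20L1, with 3260 kb. DNMT3L (ENSG00000142182.9, chromosome 21, 44246339 to 44262216, minus strand) was 77.1 kb from a PHF20 peak of 989 bp and 77.2 kb from a PHF20L1 peak of 222 bp, and both lay at the promoter of CFAP410, a cilium-associated gene. The order of distances thus differed between the lists within this family.

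The TET genes gave the same count of 0. TET1 (ENSG00000138336.9, chromosome 10, 68560337 to 68694487, plus strand) lay 32.7 kb from a PHF20 peak of 551 bp at SLC25A16, which encodes a mitochondrial carrier, and 160 kb from a PHF20L1 peak of 339 bp at CCAR1, which is 26.3 kb beyond the end of the gene. TET2 (ENSG00000168769.14, chromosome 4, 105145875 to 105279816, plus strand) was the farthest of the 9 genes from a PHF20 peak, with 326 kb to a peak of 370 bp at PPA2, and was 561 kb from a PHF20L1 peak. TET3 (ENSG00000187605.16, chromosome 2, 73984910 to 74108176, plus strand) lay 57.4 kb from a PHF20 peak of 809 bp and 57.7 kb from a PHF20L1 peak of 331 bp. These overlapped each other at the promoter of DGUOK, a mitochondrial nucleoside kinase gene. In all, the nearest peaks of the lists overlapped each other for 4 of the 9 genes, DNMT1, DNMT3L, TET3 and UHRF1. This was not counted over all protein-coding genes, so it is not read as a trait of these genes. Overlap was common in general, with 682 overlapping pairs of peaks for the 723 PHF20L1 peaks.

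**Figure D2:**
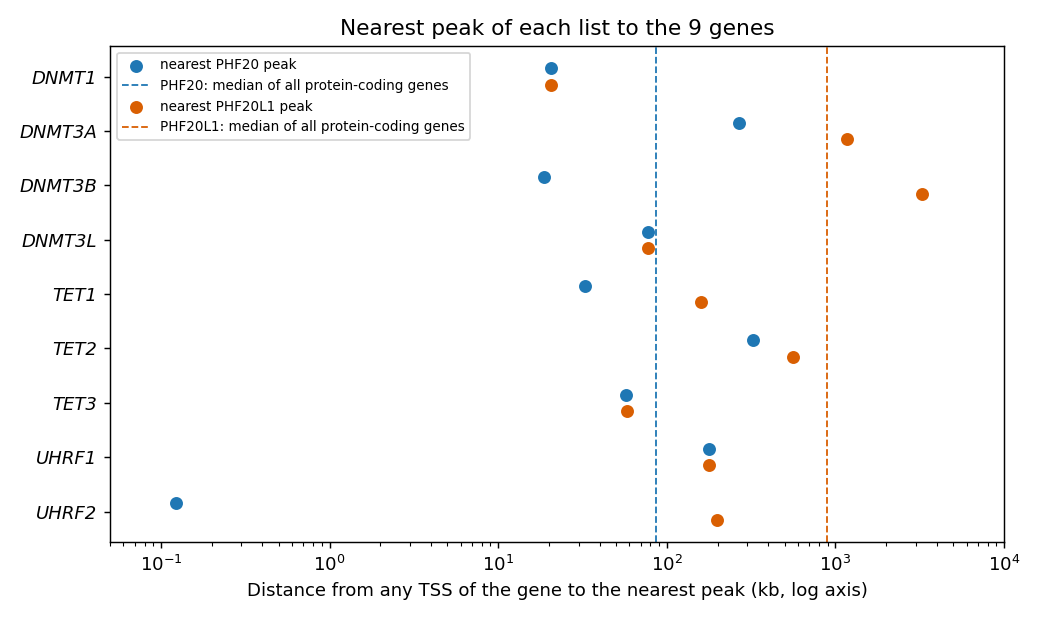
Distance from the nearest annotated TSS of each of the 9 genes to the nearest PHF20 peak (blue) and PHF20L1 peak (orange), in kb on a log axis. Dashed lines mark the medians over all protein-coding genes, 85.8 kb for PHF20 and 887 kb for PHF20L1. UHRF2 stands at 0.123 kb for PHF20, and the other 8 genes lie between 18.7 and 326 kb.

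Of the 8 genes without a PHF20 promoter peak, 5 had a PHF20 peak within 100 kb of the canonical TSS. With UHRF2, whose peak there is its own promoter peak, these were 6 of the 9 genes, and 3 had a PHF20L1 peak, with at most 2 and 1 peaks each. DNMT3A, TET2 and UHRF1 had none of either list. Over all 20033 protein-coding genes, 10019 had no PHF20 peak and 86.0% no PHF20L1 peak within this distance. The 20033 include the 4148 genes with a PHF20 promoter peak, so they are no like comparison for the 5 of 8. The share among genes without a promoter peak was not computed. From the nearest TSS of each gene, the median distance to the nearest PHF20 peak was 57.4 kb for the 9 genes. It was 85.8 kb for all protein-coding genes. For PHF20L1 the medians were 179 kb for the 9 genes and 887 kb for all protein-coding genes. These medians were not compared by a test.

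The 9 promoters varied in CpG content, and the promoters that PHF20 bound had a higher median CpG ratio than the others. The CpG observed/expected ratio is the number of CpGs relative to that given by the C and G content, here over -1000 to +500 bp of the canonical TSS. Its median was 0.743 in the 4148 protein-coding genes with a PHF20 promoter peak and 0.629 in the 15885 without. UHRF2 had the highest ratio of the 9, with 0.912, at percentile 95.5 of protein-coding genes. The ratio was 0.845 at DNMT3A, 0.822 at TET3, 0.789 at TET2, 0.748 at UHRF1, 0.682 at DNMT1, 0.656 at DNMT3B and 0.618 at TET1. DNMT1, DNMT3B and TET1 were near the middle of protein-coding genes, at percentiles 52.5, 47.6 and 41.5. DNMT3L, which is known mainly from germ cells, had a ratio of 0.240 at percentile 14.9, although its promoter was 66.7% GC, the same as that of DNMT3B. DNMT3A and TET3 were among the promoters with the most G and C, with 76.9% and 74.8% and percentiles of 99.7 and 98.9.

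When all protein-coding genes were divided into 10 classes by this ratio, PHF20 promoter peaks were present at 2.05% of genes in the lowest class and at 31.6% in the seventh, which contains UHRF1. From the fifth class up, the share was between 25.9% and 31.6%. Except for DNMT3L, the genes described here were all in the upper 6 classes, where 29.9% of 12020 genes had a PHF20 promoter peak and 5.35% a PHF20L1 promoter peak. Of the 8 genes in these classes, 1 had a PHF20 peak. In the second class, that of DNMT3L, the PHF20 share was 2.40%.

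**Figure D3:**
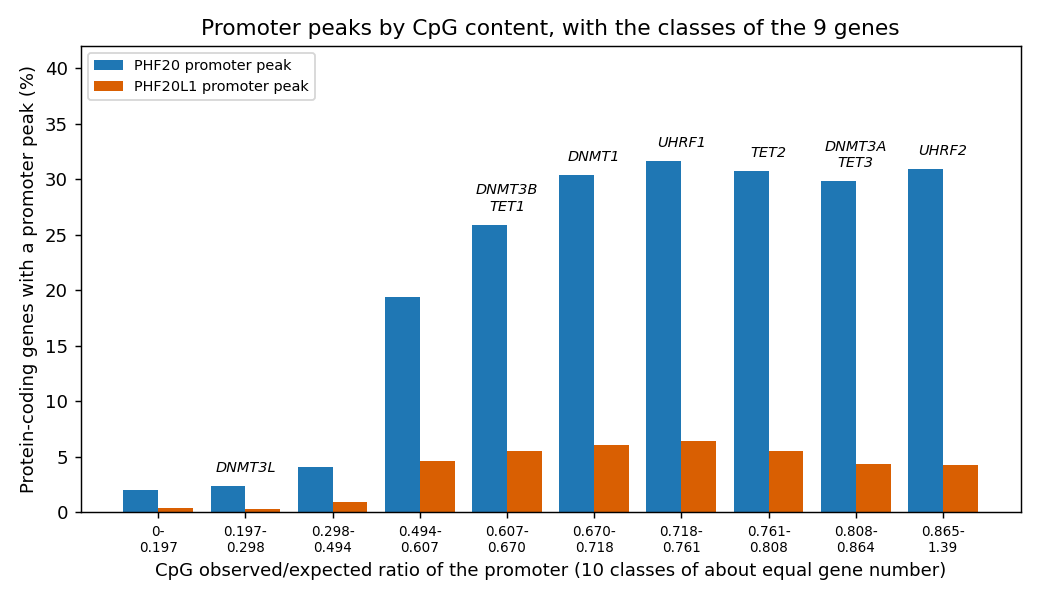
Percent of protein-coding genes with a promoter peak of PHF20 (blue) and PHF20L1 (orange) in 10 classes of promoter CpG observed/expected ratio, each of 2003 or 2004 genes. The names above the bars mark the classes of the 9 genes, of which DNMT3L is in the second class, at 2.40% for PHF20, and the others are in classes with 25.9% to 31.6%.

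The same windows were searched on both strands for CCGGAAGT (ETS type), CACGTG (E-box) and GCATGCGC (NRF1 type), short sequences known from factors that bind many promoters of widely expressed genes. None of them contains another, and a match describes the letters only. CCGGAAGT was present in 8.63% of protein-coding promoters, CACGTG in 24.0% and GCATGCGC in 7.61%. DNMT1 was the only gene of the 9 with CCGGAAGT, 292 bp downstream of its canonical TSS. It also had CACGTG 559 bp upstream, and GCATGCGC 153 bp upstream and 238 bp downstream. All of these sequences together were present in 52 protein-coding promoters (0.260%), of which 36.5% had a PHF20 promoter peak, and DNMT1 was among those without. CACGTG was also present at TET2, at UHRF1 and 2 times at TET3. No exact match to these sequences was found in the UHRF2 window or in its PHF20 peak. Near matches were not searched for. The UHRF2 stretch shown above holds TCGGAAGT, which differs from CCGGAAGT only in its first letter. Of the 13003 protein-coding promoters with no exact match, 16.1% had a PHF20 promoter peak. The share was 51.4% of promoters with CCGGAAGT, 26.8% of those with GCATGCGC and 24.5% of those with CACGTG, beside 20.7% of all protein-coding genes.

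Other genes of the pathway were taken from a list of 53 in groups by function. PHF20 had a promoter peak at 16 of them (30.2%) and PHF20L1 at 3 (5.66%), beside the 20.7% and 3.82% of all protein-coding genes. In the upper 6 CpG classes, where most of the 53 genes also fell, the shares of protein-coding genes were 29.9% and 5.35%. The shares of the 53 are near these values, but they also cover listed genes of lower classes. The listed genes in the upper classes were not counted apart, and a link to CpG content was not tested. With the outermost TSS of each gene alone, PHF20 had a promoter peak at 12 of the 53 (22.6%, against 17.8% of protein-coding genes). Among the genes for proteins that modify or read methylated DNMT1, PHF20 peaks were present at 3 of 7. These were PHF20L1 itself, with a peak of 1306 bp at percentile 95.6 of PHF20 widths, DCAF5, a ubiquitin ligase adaptor, with 773 bp, and KDM1A, a lysine demethylase, with 508 bp shared with the promoter of TEX46. SETD7, the methyltransferase that modifies DNMT1, had no peak. The PHF20L1 list had no promoter peak in this group, the gene of PHF20L1 included.

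The groups below are small, so their counts are not read as differing from the shares of all protein-coding genes. Those shares were 20.7% for PHF20 and 3.82% for PHF20L1, and 29.9% and 5.35% in the upper CpG classes. The partners of DNMT1 and UHRF1 in maintenance had PHF20 peaks at 2 of 7 genes. PCLAF, a PCNA-binding protein, shared its peak of 1012 bp with the promoter of TRIP4, and this peak did not reach the window of the canonical PCLAF TSS. DMAP1, a DNMT1-associated protein, had a PHF20 peak of 985 bp and a PHF20L1 peak of 215 bp inside it. HELLS, CDCA7, USP7, PCNA and LIG1 had none. Of the H3K36 methyltransferases, whose mark is recognized by DNMT3A and DNMT3B, 3 of 5 had a PHF20 peak, with 665 bp at SETD2, 556 bp at NSD1 and 453 bp at NSD3. NSD3 also had a PHF20L1 peak of 322 bp that lay inside that of PHF20.

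Of the CXXC proteins, which bind unmethylated CpG, 2 of 8 had a PHF20 peak, with 242 bp at KDM2A and 291 bp at KMT2A. KMT2A, an H3K4 methyltransferase gene, also had a PHF20L1 peak, and with 357 bp it was wider than that of PHF20 and contained it. In base excision of oxidized methylcytosine, 2 of 7 genes had a PHF20 peak. These were APEX1, with 1042 bp shared with the promoter of OSGEP, and TDG, the glycosylase that removes oxidized methylcytosine, with 699 bp shared with the promoter of UQCC6. The methyl-CpG readers had 1 of 8, ZBTB38, with a widest peak of 559 bp, while the MBD genes had none. Imprint and repeat silencing had 1 of 6, SETDB1, with 680 bp. Cofactor supply had 2 of 5, AHCY with 439 bp and MAT2B with 251 bp. For peaks shared by adjacent promoters the lists do not tell which gene the binding belongs to.

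**Figure D4:**
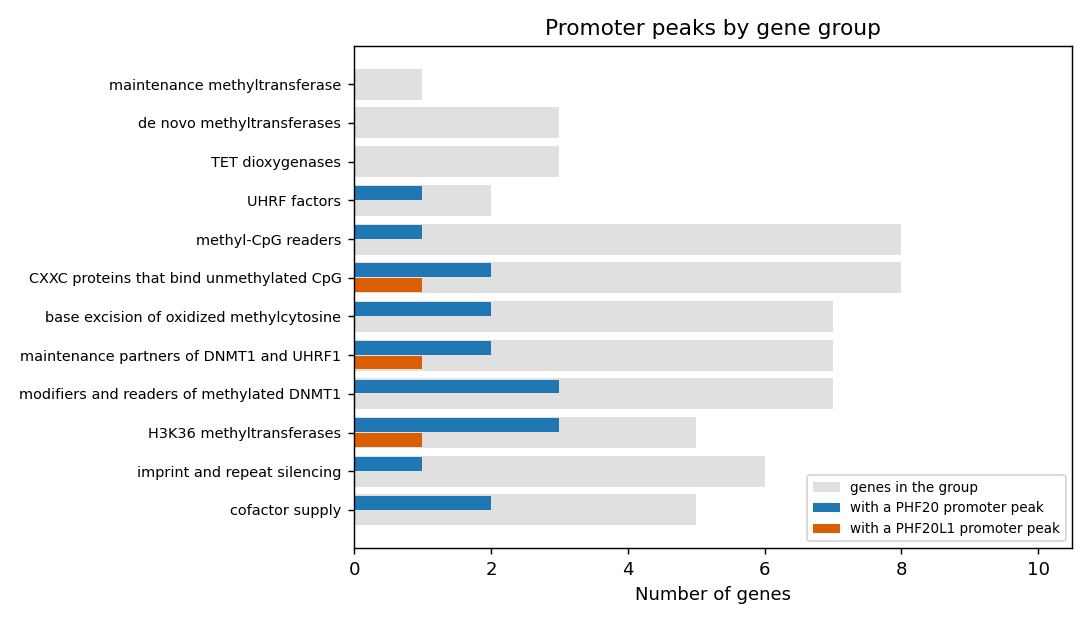
Number of genes in each group (grey), with a PHF20 promoter peak (blue) and with a PHF20L1 promoter peak (orange). The upper 4 groups are the 9 genes described here, where the only bar is that of UHRF2 for PHF20, and the PHF20L1 bars in the other groups are KMT2A, DMAP1 and NSD3.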

How the data were processed

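The 8 libraries were HA ChIP-Seq and input libraries of U2OS cells. Per the labels and the study's methods, the authors used Bowtie 1.1.2 and hg38 for mapping, kept unique positions and removed duplicate reads. They called peaks against input with MACS2 2.2.7.1, removed blacklisted regions and deposited 1 final list per protein. Per the methods, peaks of the library with the best signal were kept where they overlapped peaks of the others. The others were called at a looser p-value threshold. A PHF20 replicate that failed in peak calling had been removed. The deposited values are peak start and end positions in bp, which were used as they stand and are given counted from 1.

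Peaks were compared with TSSs and gene bodies of GENCODE release 44, a later release than that of the authors, at an overlap of at least 1 bp. The canonical TSS is that of the transcript tagged as MANE Select or Ensembl canonical. Percentiles count ties at their middle. The overlap step was tested on simulated intervals. Python 3.11.15, numpy 2.4.6 and matplotlib 3.10.9 were used. No test was made, since the lists hold no replicate values.

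The members and lists were chosen with earlier results of these data known. Genes named are all 9 members, every other listed gene with a PHF20L1 promoter peak, the up to 4 per group with the widest PHF20 peaks, and genes sharing or nearest to those peaks. Listed genes named without a peak were chosen after the values were seen.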

Additional observations from a re-analysis of the deposited data

How the results depend on the processing

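The counts were recomputed with other promoter windows, other sets of TSSs, the peak centre in place of any overlap, and wider peaks, and 54 of these 59 values stayed within 1.5 times of those reported. Of these 54, 19 were counts of 0 for the 9 genes. Only the window of 2500 bp on both sides could have added a gene, and with the nearest other peaks at least 18.7 kb away it could not change these counts, which therefore say nothing about stability. When peaks below the median width of each list were left out, 0 of the 9 genes had a PHF20 promoter peak, since that of UHRF2 is narrower. In that setting PHF20 peaks were found at 8 of the other genes of DNA methylation (15.1%) and at 2416 protein-coding genes (12.1%), and PHF20L1 peaks at 423 protein-coding genes. With peaks of at least 300 bp, PHF20L1 peaks were found at 455 protein-coding genes. No paired analysis was possible because each deposited list combines its libraries and holds no value per replicate, and for the same reason no library could be left out. The lists give no depth, so a weak site at these genes cannot be told from none.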

Other observations

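At KMT2A the PHF20L1 peak (357 bp) was wider than the PHF20 peak it contains (291 bp). Over all overlapping peaks of the lists, PHF20L1 was the wider in 16 of 682 pairs (2.35%).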
